A study of Homo sapiens with 8 samples.

Results

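The intergenic unannotated gene models are transcript models that TALON, a program that assigns long reads to transcripts, placed outside every annotated gene. They were taken as every model whose class is Intergenic in the abundance tables. There were 5627 of them among 506946 models of all classes, and each had an unannotated gene identifier of its own. The reads came from direct RNA sequencing on Oxford Nanopore instruments, in which native RNA molecules pass through a pore without being copied into cDNA. Extracts were total RNA. The submitters aimed at a comparison with PacBio data, which were not analysed here.

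The groups were 3 libraries of GM12878, a B-lymphoblastoid line made with Epstein-Barr virus, 3 of HepG2, a hepatocellular carcinoma line, and 2 of K562, a chronic myelogenous leukaemia line with erythroid genes. All are untreated established human lines as far as the labels say, and each is a single line that stands for its tissue only in part. The labels give K562 the same cell type wording as GM12878. Its markers did not match that wording: HBG1, HBG2, HBE1 and GATA1 summed to 27427 to 33976 reads per 1000000 reads of the library (CPM) in the K562 libraries and to 0 in the other 6. The 4 B cell markers summed to 8760 to 9323 CPM in GM12878 and to at most 213 CPM elsewhere. The 4 hepatocyte markers summed to 67300 to 75617 CPM in HepG2 and to at most 22.7 CPM elsewhere. Libraries held 70374 to 461497 reads, with HepG2 the deepest line at 352061 ± 106625 (SD, n = 3). No label ties libraries to separate cultures; a p-value here therefore reflects library-to-library spread, possibly technical.

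RNA from between annotated genes includes long intergenic noncoding RNAs, transcripts of enhancers and of repeats, and the ends of transcripts that run past an annotated gene. Long intergenic noncoding RNAs are known for being less abundant and more restricted to particular cell types than messenger RNAs. A multi-exon model records splicing of the RNA, which a single-exon model does not. The tables give no position or strand for these models, so location, neighbouring genes and sequence were not analysed here.

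Most intergenic models rested on very few reads. Of the 5627 models, 1803 (32.0%) had a read in these 8 libraries and 3824 had none. The 1803 models held 2811 reads, 0.147% of 1910686. Of the models with a read, 1517 (84.1%) had 1 read, 227 (12.6%) had 2 to 4, 44 (2.44%) had 5 to 9 and 15 (0.832%) had 10 or more. Those 15 models held 16.9% of the reads, against 54.0% in models read once. For comparison, the mean number of reads per model with a read was 1.56 for Intergenic, 2.67 for Antisense, 2.14 for NNC (models with an unannotated splice site), 5.68 for Genomic and 39.1 for Known models. The share of read models with only 1 read was 84.0% for Antisense and 85.3% for NNC, against 51.1% for Genomic and 33.1% for Known, so single reads were as frequent in the first 2 of these classes as in Intergenic. Antisense models lie on the strand opposite to an annotated gene, and Genomic models lie within a gene without matching its splicing.

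**Figure D1:**
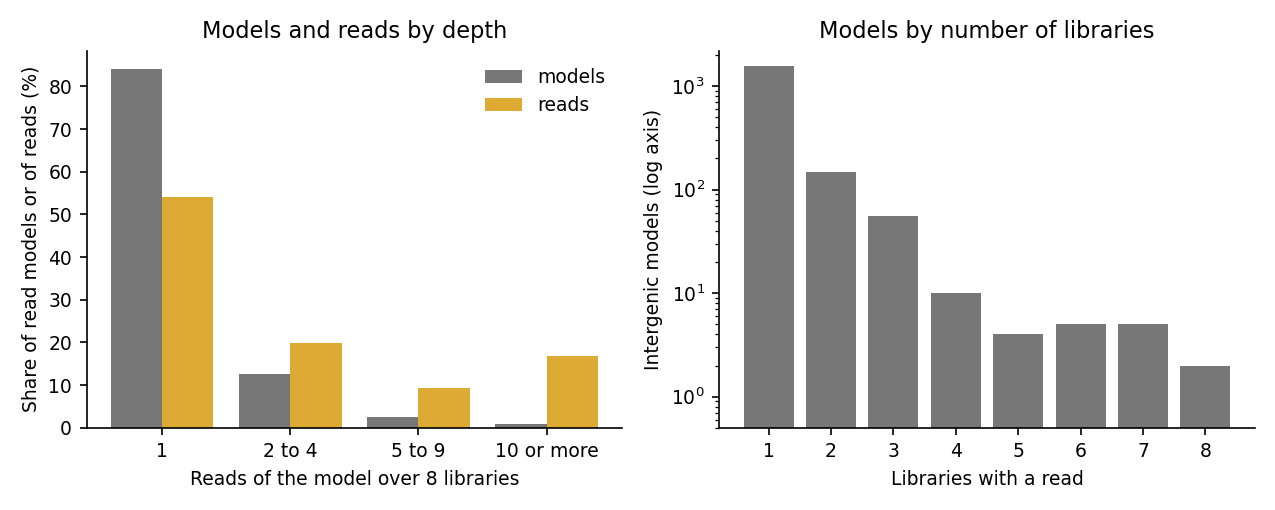
The left panel plots, for Intergenic models with a read, the share of models and of reads (percent) by the number of reads a model had over 8 libraries. The right panel plots the number of models (log axis) by the number of libraries that read them; 1574 models were read in 1 library and 2 in all 8.

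Repeated detection was rare, as the plot of models by number of libraries shows. Of the 1803 models, 1574 were read in 1 library, 147 in 2, 56 in 3 and 26 in more. By line, 1701 models were read in 1 line, 75 in 2 and 27 in all 3. A model with 1 read can only be in 1 line. Of the 286 models with at least 2 reads, 184 were in 1 line. Of the 59 models with at least 5 reads, 26 were in 1 line, 13 in 2 and 20 in all 3. The 26 comprised 18 in HepG2, 4 in GM12878 and 4 in K562, and HepG2 also had the most reads to draw from.

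The models were mostly short and unspliced. Of those with a read, 1318 had 1 exon, 333 had 2, 102 had 3, 33 had 4 and 17 had 5 or more, up to 13. Multi-exon models were 485 (26.9%) of the read models and 1176 (30.8%) of those with no read. The median length was 853 bases (quartiles 609 and 1202) with a read and 1072 bases (quartiles 647 and 1676.25) with none. Among read models, multi-exon ones had a median of 713 bases (quartiles 495 and 1159) and single-exon ones 887.5 (quartiles 666.25 and 1219.75). The same share of single-exon and multi-exon models, 84.1%, had only 1 read, while 6.90% of single-exon models and 2.27% of multi-exon models were read in more than 1 line. The tables list 9 models at a length of 1 base, 2 of them with a read, and such a length cannot be a transcript.

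Within each library, Intergenic reads were compared with the reads of 3 other classes by an exact sign-flip permutation test (two-sided, 8 libraries, Benjamini-Hochberg over 9 tests, smallest possible raw p 0.00781). The test treats the 8 libraries as independent, although they come from 3 lines. For models read again, libraries of a line also share the same models. Its p-values can therefore be too small. Intergenic reads lay more often on multi-exon models, and on longer models, than Antisense reads. All lengths here are those of the models, and the length of the reads was not analysed. Multi-exon models took 25.5% of Intergenic and 11.5% of Antisense reads, a difference of 14.0 ± 10.2 percentage points (SD, n = 8), higher in 8 of 8 libraries (exact permutation adjusted p = 0.01004). The read-weighted model length was 988 bases for Intergenic and 804 for Antisense, a difference of 184 ± 106 bases, also higher in 8 of 8 (exact permutation adjusted p = 0.01004). The size of both gaps varied with the line: the multi-exon gap was 19.9 to 32.4 points in GM12878, 0.523 to 7.70 in HepG2 and 10.8 to 15.5 in K562, and the length gap 238 to 286, 26.7 to 80.5 and 247 to 254 bases. The difference of these gaps between lines was not tested. The share of models seen again did not pass the test: 21.3% of the models read in a library were read in another library of the line in both (difference 0.0267 ± 3.54 points, higher in 2 of 8, exact permutation adjusted p = 1). By line that gap was -0.292 to 2.30 points in GM12878, -4.06 to -1.38 in HepG2 and -0.0873 to 7.23 in K562. Mean reads per read model were 1.56 for Intergenic and 2.67 for Antisense, and models of like abundance were not compared.

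Against Genomic models, multi-exon reads were more frequent in Intergenic models by 23.7 ± 5.57 points (1.78% for Genomic, higher in 8 of 8, exact permutation adjusted p = 0.01004). Genomic models are those that do not match the splicing of their gene, and spliced reads of genes go largely to other classes. NNC models, for example, were 100% multi-exon. The gap is therefore partly set in advance by the class rules, and no support is drawn from it. Intergenic models were seen again less often than Genomic ones, at 21.3% against 56.0%, lower in 8 of 8 libraries (difference -34.6 ± 6.23 points, exact permutation adjusted p = 0.01004). Among models with at least 2 reads that difference was -5.82 points (exact permutation adjusted p = 0.0201). Intergenic length differed by -43.0 ± 43.1 bases from the Genomic mean of 1031, lower in 7 of 8 libraries (exact permutation adjusted p = 0.0352). That last call was lost among models with at least 2 reads, where the difference was -21.3 bases (exact permutation adjusted p = 0.334), and when any library but HepG2 replicate 3 was left out (differences from -54.0 to -32.1 over the 8 omissions). Against Known models, Intergenic reads were less often on multi-exon models (92.2% for Known). That share is also partly set by the class, since Known models match annotated transcripts. Intergenic reads lay on shorter models (1508 bases for Known, a difference of -520 ± 62.0 bases). Intergenic models were also seen again less often (73.5% for Known). Each difference was found in 8 of 8 libraries (exact permutation adjusted p = 0.01004). The last difference, -52.2 ± 4.90 points, was -15.0 points among models with at least 2 reads (exact permutation adjusted p = 0.0117). A model with a single read cannot be seen again, so this measure depends on reads per model. Mean reads per read model were 1.56 for Intergenic, 5.68 for Genomic and 39.1 for Known. The cut at 2 reads does not make the classes equal in reads. Whether Intergenic models are seen again less often than Genomic or Known models of like abundance was therefore not tested.

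Intergenic models took between 0.116% and 0.183% of the reads of every library. In GM12878 it was 0.183%, 0.116% and 0.151% in replicates 1 to 3, with 95% Wilson intervals of 0.163 to 0.206, 0.101 to 0.133 and 0.125 to 0.182. In HepG2 it was 0.141%, 0.165% and 0.155%, with intervals of 0.131 to 0.153, 0.150 to 0.182 and 0.143 to 0.169. In K562 it was 0.116% and 0.146%, with intervals of 0.0992 to 0.135 and 0.133 to 0.160. The GM12878 libraries held both the highest and nearly the lowest share, so the lines overlapped, and the intervals cover counting error only.

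**Figure D2:**
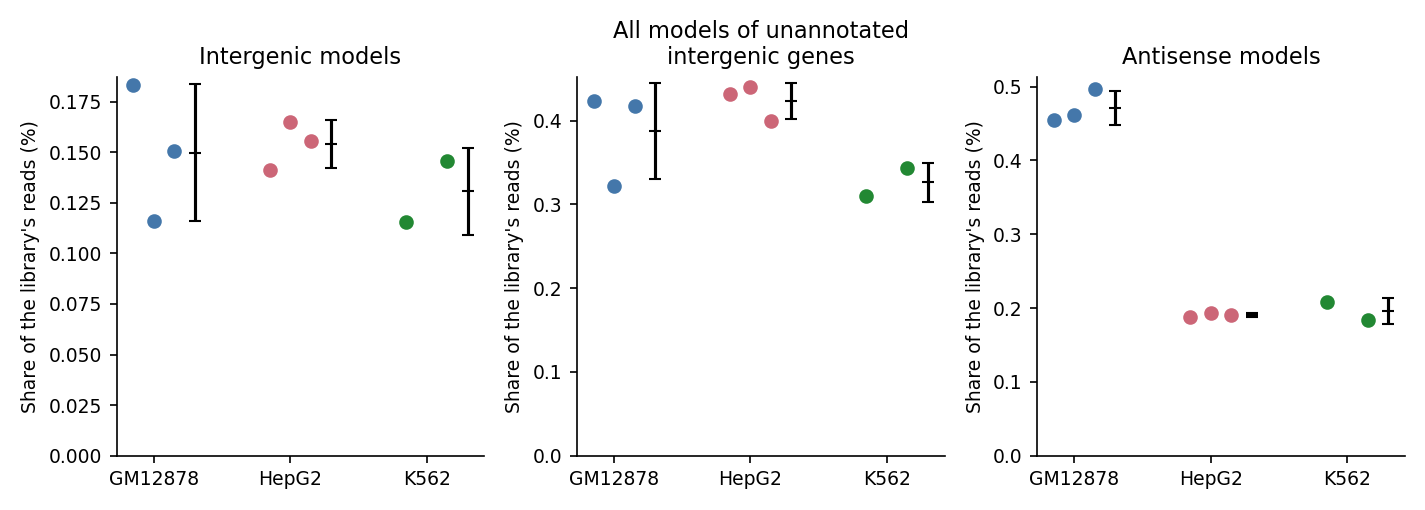
Each point is 1 library, and bars give the mean ± SD of a line, as the percent of the library's reads in Intergenic models (left), in all models of the unannotated intergenic genes (middle) and in Antisense models (right). The lines overlap in the left panel, and the 3 GM12878 libraries lie above the other 5 in the right panel.

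The 4 measures compared between lines were this share, the number of unannotated genes read at equal depth, splicing and length. An exact permutation test over all 560 assignments of libraries to lines was used (two-sided by construction, Benjamini-Hochberg over 4 measures, smallest possible raw p 0.00357). The read share averaged 0.150 ± 0.0337% over the 3 GM12878 libraries (SD), 0.154 ± 0.0118% over the 3 of HepG2 and 0.131 ± 0.0214% over the 2 of K562, with an exact permutation p of 0.575 (adjusted 0.704). Thinned to 70374 reads, the smallest library's depth, the libraries held 97.8 ± 20.7 unannotated genes with an Intergenic read in GM12878, 90.8 ± 3.87 in HepG2 and 80.7 ± 15.4 in K562 (exact permutation p = 0.486, adjusted 0.704). Without thinning, 101 to 236 such genes were read in GM12878 libraries, 299 to 480 in HepG2 and 132 to 361 in K562. The unthinned numbers were highest in the deepest library of the 8 and lowest in the shallowest.

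Splicing and length did not pass the test either. Multi-exon models took 25.5%, 38.2% and 25.5% of Intergenic reads in GM12878, 23.9%, 18.8% and 23.4% in HepG2, and 20.6% and 28.0% in K562 (exact permutation p = 0.318, adjusted 0.704). Mean model length was 983 ± 38.9, 983 ± 18.2 and 1002 ± 7.85 bases in the 3 lines in that order (exact permutation p = 0.704, adjusted 0.704). A p that misses the threshold does not show that the lines are alike.

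The Antisense class, from the same libraries, did separate GM12878. Its models took 0.455% to 0.497% of reads in GM12878, 0.187% to 0.194% in HepG2 and 0.183% to 0.208% in K562. The number of Intergenic reads per Antisense read was 0.402, 0.251 and 0.303 in GM12878, 0.755, 0.851 and 0.815 in HepG2, and 0.556 and 0.795 in K562. GM12878 was lowest in all 3 of its libraries, without overlap. This ratio was examined after the values were seen.

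Single models were then taken in order of their reads. The 10 most read Intergenic models held 2 multi-exon and 8 single-exon models, of 360 to 1999 bases. At the end of that order 3 models were tied at 13 reads, of which ENCODEHG000048127 and ENCODEHG000049798 come first by identifier; the other, ENCODEHG000051092 (1 exon, 742 bases), had 1, 2 and 1 reads in GM12878, 1, 1 and 5 in HepG2, and 0 and 2 in K562. Reads are not divided by length here, since 1 direct RNA read is 1 molecule, so the order is one of reads.

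**Figure D3:**
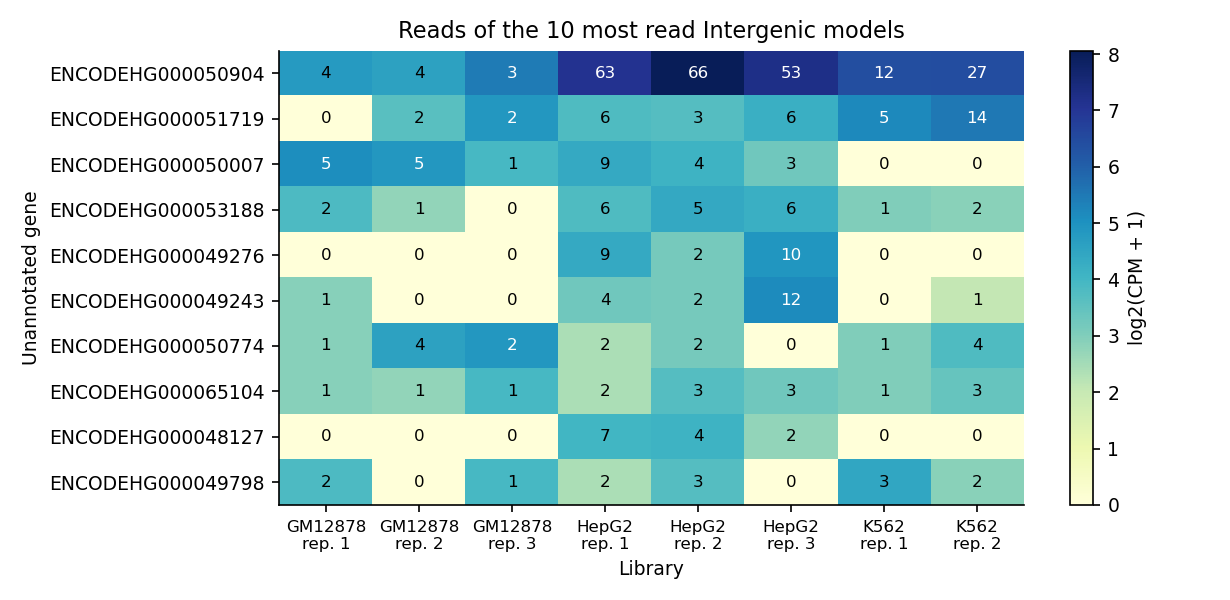
Rows are the 10 Intergenic models with the most reads, columns the 8 libraries; numbers are reads and colour is log2(CPM + 1). ENCODEHG000050904 stands out with 53 to 66 reads in the HepG2 libraries, 12 and 27 in K562 and 3 or 4 in GM12878.

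ENCODEHG000050904, a single-exon model of 1154 bases, held 232 reads, 8.25% of all Intergenic reads. Its reads were 4, 4 and 3 in GM12878, 63, 66 and 53 in HepG2, and 12 and 27 in K562. In CPM these were 26.4, 22.7 and 42.6, then 137, 266 and 153, then 84.0 and 86.1, so the 3 lines did not overlap. It was the only Intergenic model that passed the filter on low counts (filterByExpr), among 4806 features in 1 edgeR quasi-likelihood fit over all genes, in which a call needed a Benjamini-Hochberg adjusted p under 0.05 and a 2-fold difference. In bulk RNA, fewer cells with a transcript and less of it per cell cannot be told apart.

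ENCODEHG000050904 was higher in HepG2 than in GM12878 by 3.05 on the log2 scale (SE 0.41, edgeR adjusted p = 1.354e-08), where 49.1 percent of all tested features were called in either direction. It was higher in K562 than in GM12878 by 1.60 (SE 0.51, edgeR adjusted p = 0.01199; 28.7 percent of features called). That call was lost without GM12878 replicate 2 (1.497, edgeR adjusted p = 0.0611) and without K562 replicate 2 (1.48, edgeR adjusted p = 0.0747). Against HepG2 it was lower in K562, with a log2 difference of -1.45 (SE 0.35, edgeR adjusted p = 0.0004314; 44 percent of features called). The first 2 comparisons share the GM12878 libraries. The model passed the filter through HepG2 and K562 and not through GM12878, where it was lowest. Its p-values against GM12878 are therefore partly set in advance, and no support is drawn from them.

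The other abundant models were too shallow to test at the chosen filter. ENCODEHG000051719 (1 exon, 799 bases) had 0, 2 and 2 reads in GM12878, 6, 3 and 6 in HepG2, and 5 and 14 in K562. Its K562 levels, 35.0 and 44.7 CPM, lay above the 6 other libraries, which reached 28.4 CPM. ENCODEHG000050007 (2 exons, 503 bases) had 5, 5 and 1 reads in GM12878, 9, 4 and 3 in HepG2 and none in either K562 library. With 0 reads K562 was set at 3 counts, 6.57 CPM over the line. Against that floor GM12878 is given as at least 4.20-fold higher and HepG2 as at least 2.30-fold higher. Here and below, such values leave out counting error in the higher line, so a full bound would be lower. ENCODEHG000053188 (1 exon, 970 bases) was read in 7 libraries, with 2, 1 and 0 reads in GM12878, 6, 5 and 6 in HepG2, and 1 and 2 in K562. Its lines overlapped in CPM, with 13.2 in GM12878 replicate 1 and 13.0 in HepG2 replicate 1, and the pooled HepG2 to GM12878 ratio was 2.14 (95% counting interval 0.618 to 11.4). ENCODEHG000065104 (1 exon, 1083 bases) was, beside ENCODEHG000050904, the only model read in all 8 libraries, with 1 to 3 reads in each. Its pooled levels were 7.53 CPM in GM12878, 7.57 in HepG2 and 8.77 in K562, and the ratio of HepG2 to GM12878, 1.01, had a counting interval of 0.241 to 5.88.

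Other models of the 10 had most of their reads in HepG2, the deepest line. ENCODEHG000049243 (1 exon, 693 bases) had 4, 2 and 12 reads in HepG2 and 1 read each in GM12878 replicate 1 and K562 replicate 2. ENCODEHG000049276 (2 exons, 1999 bases) had 9, 2 and 10 reads in HepG2 and none elsewhere, and ENCODEHG000048127 (1 exon, 814 bases) had 7, 4 and 2 there and none elsewhere. ENCODEHG000049276 was at least 2.64-fold above GM12878 and at least 3.02-fold above K562, and ENCODEHG000048127 at least 1.63-fold and at least 1.87-fold. The remaining 2, ENCODEHG000050774 (431 bases) and ENCODEHG000049798 (360 bases), were single-exon models with 0 to 4 reads in each library and no line apart from the rest.

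Spliced models with at least 5 reads numbered 17, against 42 single-exon ones, and most of those named were read in 1 line. In HepG2 alone were ENCODEHG000049173 (2 exons, 402 bases; 3, 0 and 4 reads), ENCODEHG000052006 (2 exons, 933 bases; 3, 2 and 1) and the 3-exon ENCODEHG000049821 (1159 bases; 3, 2 and 1). The 2 models with 4 exons were also read in HepG2 alone: ENCODEHG000050963 (984 bases) had 1, 1 and 4 reads, and ENCODEHG000066068 (588 bases) had 1, 2 and 2. These 5 models had pooled HepG2 levels of 4.73 to 6.63 CPM, below the 7.53 CPM that 0 reads allow in GM12878, so a lower level there was not detectable at this depth. Against these, ENCODEHG000056643 (3 exons), the longest at 2441 bases, had 2, 3 and 1 reads in GM12878 alone. ENCODEHG000059030 (2 exons, 2047 bases) had 4 and 1 reads in K562 alone. ENCODEHG000049469 (2 exons, 1922 bases) was read in all 3 lines, with 1 read in GM12878, 6 in HepG2 and 4 in K562. ENCODEHG000055275 (2 exons, 814 bases) had 4 reads in GM12878 replicate 1 and 2 in K562 replicate 2, and none in the other 6 libraries. Among the shortest with at least 5 reads, ENCODEHG000065059 (299 bases), ENCODEHG000065223 (2 exons, 344 bases) and ENCODEHG000050832 (357 bases) had 0 to 3 reads in each library.

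An Intergenic model is only 1 model of its unannotated gene, and the genes held more reads than these models. The 5627 genes had 9491 models of all classes: 4384 genes had 1 model, 1243 had more, and the largest had 145. With all models summed they held 7489 reads, 0.392% of the total. Intergenic models carried 37.5% of these, Genomic models of the same genes 45.7%, NNC models 7.48%, incomplete splice matches (ISM) 6.16% and new combinations of known sites (NIC) 3.10%. In this way 2329 genes had a read, 526 of them only through another model, and 97 genes reached 10 reads, against 15 on the Intergenic model. The 5 genes of most reads held 25.1% of them.

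Summed over models, 15 unannotated genes passed the filter, of 4809 features. In HepG2 against GM12878, 12 were called, 7 higher and 5 lower, where 49.3 percent of features were called (28 percent higher and 21.3 percent lower). In K562 against GM12878, 7 were called, 2 higher and 5 lower (28.7 percent of features; 13.8 percent higher, 14.9 percent lower). In K562 against HepG2, 6 were called, 1 higher and 5 lower (44.1 percent of features; 17.4 percent higher, 26.6 percent lower). A gene can pass the filter through the line where it is high, so these counts are partly set in advance and nothing is drawn from them. The median log2 difference of the 15 genes was 0.32, 0 and -0.73 in the 3 comparisons, against 0.01, 0 and -0.07 over all features. For annotated genes named LINC, 9 of 320 with a read were tested and 6, 6 and 5 were called, with medians of -0.79, -0.13 and 0.

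**Figure D4:**
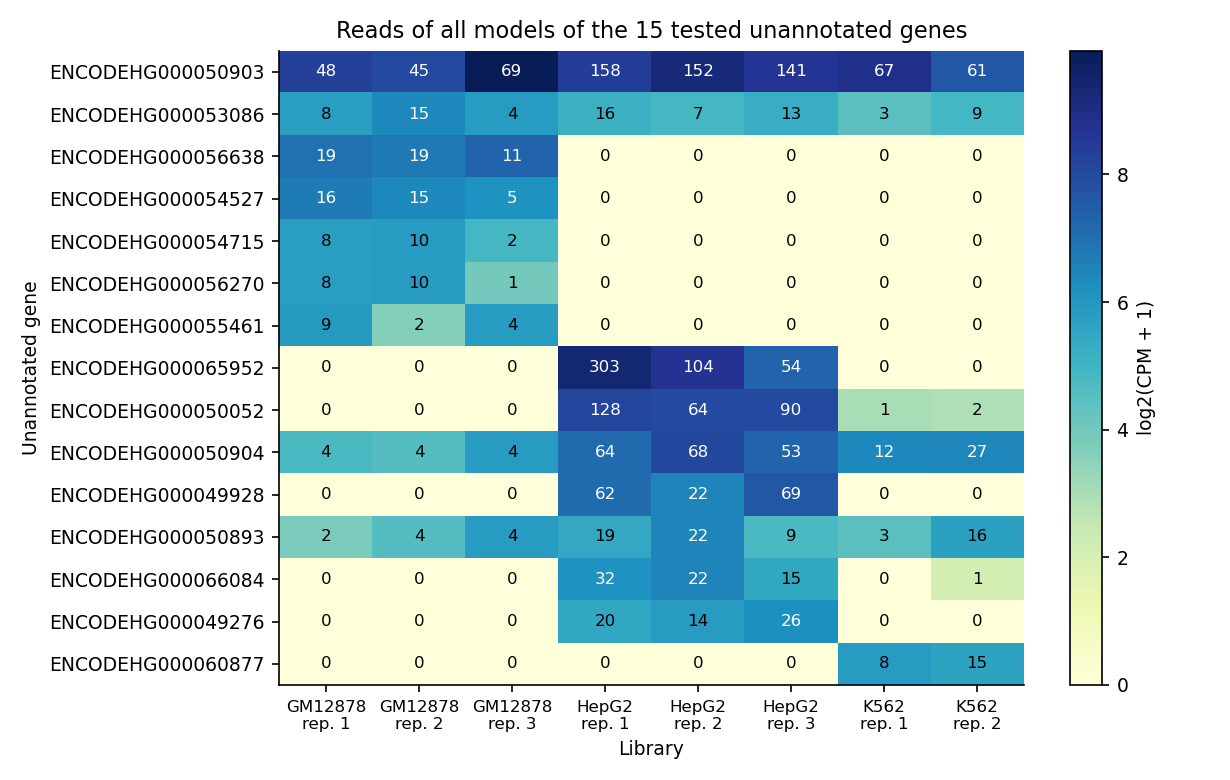
Rows are the 15 tested unannotated genes, columns the 8 libraries; numbers are reads of all models and colour is log2(CPM + 1). Of these genes 5 were read only in GM12878, 3 only in HepG2 and 1 only in K562.

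Of the tested genes called higher in HepG2, 3 were read in that line alone. A gene read in 1 line, or with at most 3 reads outside it, passed the filter only through that line and had to differ, so the p-values of such genes support no restriction to the line and are given only where a call was missed or lost. All calls of tested genes are counted above. ENCODEHG000065952 had 303, 104 and 54 reads in HepG2 and none in the other 5 libraries, on 20 models of 351 to 2662 bases. At 410 ± 250 CPM in HepG2 (SD, n = 3) it was at least 57.9-fold higher than in GM12878 and at least 66.4-fold higher than in K562. The edgeR adjusted p was 0.04899 against GM12878 and 0.05702 against K562, and HepG2 levels ran from 156 CPM in replicate 3 to 657 CPM in replicate 1. The first call was lost without GM12878 replicate 2, HepG2 replicate 2 or either K562 library (edgeR adjusted p from 0.0678 to 0.168). ENCODEHG000050052 had 128, 64 and 90 reads in HepG2, none in GM12878 and 1 and 2 in K562. It was even across HepG2, at 265 ± 10.8 CPM, at least 35.4-fold higher than in GM12878 and 40.6-fold higher than in K562 (95% counting interval 13.8 to 198).

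Both genes were almost wholly single-exon, and their Intergenic models held nearly none of the reads. For ENCODEHG000065952 that model had 1 read and multi-exon models 2.17% of reads. For ENCODEHG000050052 it had 0 reads, while a single-exon Genomic model of 515 bases had 237. ENCODEHG000049928 had 62, 22 and 69 reads in HepG2 and none elsewhere, at least 19.2-fold above GM12878 and at least 22.0-fold above K562, with 150 of its 153 reads on a single-exon model of 618 bases. ENCODEHG000066084 had 32, 22 and 15 reads in HepG2, none in GM12878 and 1 in K562, at least 8.67-fold above GM12878 and 29.8-fold above K562 (counting interval 5.18 to 1194).

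ENCODEHG000049276 had the highest multi-exon share of the tested genes highest in HepG2. It had 20, 14 and 26 reads there and none elsewhere, at 58.3 ± 16.0 CPM, at least 7.54-fold above GM12878 and at least 8.64-fold above K562. Multi-exon models held 40% of its reads, and its Intergenic model held 21 of 60. ENCODEHG000050893, with 2, 4 and 4 reads in GM12878, 19, 22 and 9 in HepG2 and 3 and 16 in K562, was called higher in HepG2 than in GM12878 by 1.30 on the log2 scale (SE 0.57, edgeR adjusted p = 0.0493). Its GM12878 and HepG2 libraries overlapped, at 13.2 to 56.8 and 26.0 to 88.5 CPM. The call was lost without GM12878 replicate 1, GM12878 replicate 2 or HepG2 replicate 1 (edgeR adjusted p from 0.0523 to 0.248) and by DESeq2 (adjusted p = 0.126).

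The tested genes read only in GM12878 were 5, and in 4 of them most reads were on multi-exon models. ENCODEHG000056638 had 19, 19 and 11 reads, 130 ± 24.5 CPM (SD, n = 3), at least 43.3-fold above HepG2 and at least 18.7-fold above K562. It also had the most models, 145, of which 41 were read, with up to 18 exons, and multi-exon models held 77.6% of its reads. ENCODEHG000054527 had 16, 15 and 5 reads, all on multi-exon models, and was at least 31.8-fold above HepG2 and at least 13.8-fold above K562. Of its 36 reads, 34 were on 1 model with 2 exons and 671 bases.

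ENCODEHG000054715, with 8, 10 and 2 reads, and ENCODEHG000056270, with 8, 10 and 1, had 75% and 73.7% of reads on multi-exon models. They were at least 17.7-fold and 16.8-fold above HepG2 and at least 7.64-fold and 7.26-fold above K562. ENCODEHG000055461, with 9, 2 and 4 reads, was the exception in structure, with every read on single-exon models. It was at least 13.3-fold above HepG2 and at least 5.73-fold above K562, and its call against K562 was lost without K562 replicate 2 (edgeR adjusted p = 0.0539).

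Of the tested genes, 1 was read only in K562. ENCODEHG000060877 had 8 and 15 reads in K562 (51.9 ± 5.77 CPM, n = 2) and none in the other 6 libraries. It was at least 6.69-fold above GM12878 and at least 17.7-fold above HepG2. All 23 reads were on multi-exon models, of up to 5 exons.

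The filter kept few of the genes read in 1 line. With all models summed and at least 10 reads, 13 genes were read only in GM12878, 19 only in HepG2 and 9 only in K562, of which 5, 3 and 1 were tested. Multi-exon models held most of the reads in 8, 8 and 5 of them, so spliced genes were present in each line. The median level in the line was 35.9 CPM in GM12878, 19.5 in HepG2 and 26.5 in K562, and since 10 reads stand for fewer CPM in the deeper HepG2 these medians are not compared.

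**Figure D5:**
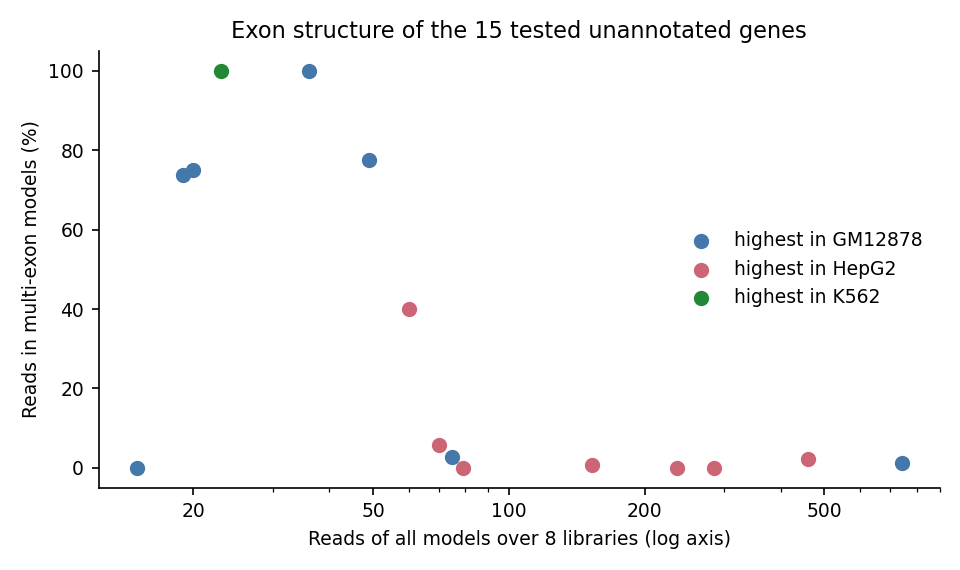
Each point is 1 of the 15 tested unannotated genes: its reads over 8 libraries (x, log axis) against the percent of those reads on multi-exon models (y), coloured by the line of highest mean CPM. The 5 genes at 73.7% or more all had under 50 reads, and the 8 genes highest in HepG2 or with most reads lie at 40% or less.

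2 tested genes were called in no comparison. ENCODEHG000050903 had the most reads of any unannotated gene, 741 on 55 read models of 331 to 6518 bases, none of them on its Intergenic model and 1.35% on multi-exon models. Its reads were 48, 45 and 69 in GM12878, 158, 152 and 141 in HepG2, and 67 and 61 in K562. In CPM these were 316, 256 and 980, then 342, 612 and 407, then 469 and 195, so libraries of the same line differed by more than the lines did. ENCODEHG000053086 had 8, 15 and 4 reads in GM12878, 16, 7 and 13 in HepG2 and 3 and 9 in K562. Its log2 difference of K562 from GM12878 was -1.33 (SE 0.54, edgeR adjusted p = 0.0553), and 1 of its read models is listed at 1 base.

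Line restriction was described for genes of like depth, with no test, as the share of a gene's summed line CPM that came from its highest line. Among genes with 10 to 29 reads, the 78 unannotated intergenic genes had a median share of 88.1%, and 35 of them (44.9%) were read in 1 line. The 37 LINC genes of that depth had 88.7% and 16 (43.2%). The 55 unannotated antisense genes had 67.7% and 12 (21.8%), and the 3696 other annotated genes 58.1% and 461 (12.5%). The unannotated intergenic genes lay beside the annotated LINC genes in this depth range. With at least 30 reads, the medians were 60.9% for 19 unannotated intergenic genes, 86.7% for 10 LINC genes, 56.1% for 31 unannotated antisense genes and 50.2% for 6703 others, and 6, 4, 2 and 384 of them were read in 1 line. Of the 35 unannotated intergenic genes of the shallower range in 1 line, 15 were in HepG2, 11 in GM12878 and 9 in K562.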

How the data were processed

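Read counts per transcript model, not normalized, are the deposited unit in the 3 TALON abundance tables, 1 per line. The submitters' processing notes name minimap2 and hg38. The TALON release was not given in the sources used here. Exon number and length are other values that the authors deposited per model. No column was without a sample.

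Members and gene lists were chosen with earlier results of these data known. CPM are counts per 1000000 reads of a library. Intergenic models, and all other models by gene, were filtered with filterByExpr, TMM normalised and tested with edgeR 4.0.16 in R 4.3.3 (glmQLFit, robust, and glmQLFTest, two-sided, line as the only term, Benjamini-Hochberg over all features). Summing all models of an unannotated gene, RLE size factors, other filters, DESeq2 1.42.0, a replicate block and leaving out each library were alternatives. A line with 0 reads was set at 3 counts: 7.53 CPM in GM12878, 2.84 in HepG2 and 6.57 in K562. Values given as at least some fold divide the pooled level of the higher line by this floor. They leave out counting error in the higher line. Intervals are at 95% (exact Clopper-Pearson for ratios) and reflect counting alone. Between libraries of a line, chi-square divided by its degrees of freedom was 1.23 to 3.04 over 7 pairs, and no library was taken as a duplicate.

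Named genes were the 10 with most Intergenic reads; up to 8 called genes per direction with the largest difference after adding 10 CPM and no overlap, in both fits; the 8 multi-exon models of most reads and the 4 of most exons, longest and shortest with at least 5 reads; and a model read in all 8 libraries. ENCODEHG000050893, ENCODEHG000050903 and ENCODEHG000053086 were named after their values were seen. On simulated data edgeR recovered 21%, 15% and 26% of genes changed 2-fold and 73%, 72% and 82% changed 4-fold (HepG2 against GM12878 over 4037 genes, K562 against GM12878 over 4069, K562 against HepG2 over 4041). Recovery needed an adjusted p under 0.05 and the right direction, without the 2-fold cut of a call. Unchanged genes were 5.05%, 3.33% and 5.26% of those that passed. The simulation changed only a small part of the genes, in the first line of each comparison, starting from means over all libraries. In the real fit 28.7 to 49.1 percent of features were called, so these rates need not hold for these data.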

Additional observations from a re-analysis of the deposited data

Results flagged for a closer look

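The number of Intergenic reads per Antisense read differed between the lines, and was lowest in GM12878, at 0.251 to 0.402, against 0.755 to 0.851 in HepG2 and 0.556 to 0.795 in K562. The exact permutation test of the log2 ratio over 560 assignments of libraries gave p = 0.00714 (two-sided by construction; 0.0357 adjusted over 5 measures; the smallest possible p is 0.00357). The adjusted p no longer passed in 10 of 11 alternatives: it was 0.125 without the most read gene, 0.0714 to 0.286 with each library left out and 0.139 with labels permuted within replicate number. The Intergenic share of reads was 0.150%, 0.154% and 0.131% in the 3 lines and did not pass its test, while the Antisense share was over 0.455% in GM12878 and at most 0.208% elsewhere. The measure was chosen after the data were seen. With labels permuted within replicate number, or with a K562 library left out, too few arrangements remain for a single measure to pass after adjustment. Those alternatives do not show whether the difference is firm.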

How the results depend on the processing

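The 4 measures between lines passed the test under no alternative. Without a K562 library, or with labels permuted within replicate number, a single measure could not pass after adjustment. With each library left out, exact permutation adjusted p ranged from 0.470 to 0.957 for the read share, 0.114 to 0.957 for genes at equal depth and 0.457 to 0.957 for splicing and for length. Of the 9 class comparisons, 7 to 8 stood with each library left out; the Genomic length difference is given above (-54.0 to -32.1 bases; -21.3 with at least 2 reads). For Intergenic models alone, the called number in HepG2 against GM12878, K562 against GM12878 and K562 against HepG2 was 1, 1 and 1. With no filter it became 7, 3 and 6 (1803 models tested, 16.4, 8.27 and 14.1 percent of all features called). With at least 10 reads it was 6, 3 and 6 (15 tested, 37.2, 19.5 and 33.7 percent). It was 12, 7 and 6 with all models summed (15 tested, 49.3, 28.7 and 44.1 percent). In the third comparison it was 2 with only the libraries of the 2 lines (2 tested, 47.1 percent). Leaving out each GM12878 or HepG2 library gave 1, 0 to 1 and 1, with 1 model tested each time. The 0 came without GM12878 replicate 2 (22.6 percent of all features called). Leaving out a K562 library leaves 1 library of that line, so the called numbers of those fits are not given. For all models summed, 12, 7 and 6 became 52, 30 and 43 with at least 10 reads (97 tested; 37.2, 19.5 and 33.8 percent of all features) and 11, 6 and 7 by DESeq2 (43.3, 20.8 and 35.3 percent), and leaving out each library gave 6 to 17, 3 to 11 and 3 to 9. The second comparison gave 3 without GM12878 replicate 1 or 2 (14 tested, 22.5 and 22.6 percent of all features). It gave 4 without each HepG2 library in turn, with 10, 9 and 11 tested in replicate order. There 28.9 percent or more of all features were called. These numbers therefore rest on different sets of tested genes. The first gave 7 without HepG2 replicate 1 (45.8 percent of all features) and 6 without HepG2 replicate 2 (47.0 percent). Leaving out HepG2 replicate 2 also gave 3 in the third (42.2 percent). Fewer unannotated genes passed the filter without HepG2 replicate 1 or 2 (10 and 9). Over 28 called gene comparisons, 254 of 269 alternative values kept the call, 15 lost it and 0 reversed. Alternatives in which a gene fell out at the filter are not among the 269. In HepG2 against GM12878, ENCODEHG000054715 thus counts 6 alternatives, where ENCODEHG000049928 counts 11. Many of these genes had to differ, as said above, so the number of kept calls is partly set in advance. The Intergenic to Antisense ratio had an exact permutation adjusted p of 0.125 without the most read gene and 0.0714 to 0.286 with each library left out; the cause was not tested.

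Replicate numbers did not pair the libraries: deviations of same-numbered libraries correlated at -0.0521 to 0.0373. With the replicate block, the called numbers were 1, 1 and 1 for Intergenic models alone (1 tested, 48.5, 27.1 and 41.9 percent of all features called). For all models summed they were 12, 7 and 7 (15 tested, 48.6, 27.1 and 42.0 percent). With replicate means removed as a block, exact permutation adjusted p was 0.768 for the read share, genes at equal depth and length and 0.700 for splicing. With line labels permuted within replicate number as a block it was 0.694 for all 4, and 0.139 for the Intergenic to Antisense ratio; the 72 arrangements allow no raw p below 0.0278, so a single measure could not pass after adjustment.

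Depth limits these results: 84.1% of read models had 1 read.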

Other observations

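ENCODEHG000050903, the unannotated gene with the most reads over all its models, had read numbers that did not follow the library totals. In GM12878 it had 48, 45 and 69 reads in libraries of 151720, 176118 and 70374 reads. In HepG2 it had 158, 152 and 141 reads in libraries of 461497, 248490 and 346196 reads, and in K562 67 and 61 in libraries of 142837 and 313454. Its CPM were therefore highest in the shallowest library of each line: 980 in GM12878 replicate 3, 612 in HepG2 replicate 2 and 469 in K562 replicate 1. ENCODEHG000050904 was also highest in the shallowest library in GM12878 (56.8 CPM) and HepG2 (274 CPM), with all models summed, but not in K562 (84.0 against 86.1 CPM). ENCODEHG000065952 differed from both, with its highest level, 657 CPM, in the deepest HepG2 library. These genes were chosen after their values were seen, and the part of depth in their levels was not tested.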
